A study of Mus musculus with 6 samples.

Results

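The miR-15, miR-16, miR-195 and miR-497 family was followed in cultured mouse vascular smooth muscle cells (VSMCs), which give the artery wall its contractile layer. Its members were the reporters (array probes named for a miRNA) named mmu-miR-15a, mmu-miR-15b, mmu-miR-16, mmu-miR-195 and mmu-miR-497, and all 5 were found among the 1078 reporters of each array. VSMCs of C57BL/6 mice aged 8 weeks, taken from the abdominal aorta, were either left untreated (control, 3 cultures) or treated with TNF-α, an inflammatory cytokine (3 cultures), and all were collected after several passages. Total RNA of each culture was read on 1 array in a single colour, Cy5. No dose or time of TNF-α is stated in the sources used here, and passaged VSMCs are a model of cultured cells, not of the intact aorta.

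MicroRNAs (miRNAs) guide repression of mRNAs mainly through pairing of bases 2 to 8, the seed, with a matching site in the target. The miR-15 and miR-16 seed family is known as a brake on the cell cycle and on cell survival, since its targets include the G1 cyclins CCND1 and CCNE1, the kinase CDK6 and the survival factor BCL2. In the cardiovascular system the family is known for restraining division of heart muscle cells after birth, and miR-195 for restraining proliferation of VSMCs.

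The mature sequences below, from RefSeq on GRCm38.p6 and found for all 5 members, are shown because the members share the seed (bases 2 to 8, in capitals) and differ after it.
miR-15a: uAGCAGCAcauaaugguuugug
miR-15b: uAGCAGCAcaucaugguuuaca
miR-16: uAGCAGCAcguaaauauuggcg
miR-195: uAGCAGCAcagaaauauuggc
miR-497: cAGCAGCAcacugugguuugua

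The seed AGCAGCA was the same in all 5 members, and the site it pairs with in a target reads UGCUGCU. Of 1679 mature mouse miRNAs in the RefSeq table, 10 carry this seed. Besides the 5 members they are miR-322, miR-195b, miR-6342, miR-6353 and miR-6419, and of these miR-322 was measured here. Counted from the 5′ end of the first sequence named, miR-15a and miR-15b differ at 4 of 22 positions (A12C, G20A, U21C and G22A), and miR-16 and miR-195 at 2 of 21 (G10A and U11G). miR-15b and miR-16 differ at 8 of 22. The probe sequences were not used here, so how far a probe for 1 member also reads another was not tested.

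The members come from 3 pairs of neighbouring hairpins. miR-15a (chr14:61632075-61632096, minus strand) comes from the hairpin Mir15a, which lies 54 bases from the hairpin Mir16-1, both within the span of the noncoding gene Dleu2. miR-15b (chr3:69009775-69009796, plus strand) comes from the hairpin Mir15b, which lies 66 bases from the hairpin Mir16-2, both within the span of Smc4, a condensin gene. miR-195 (chr11:70235062-70235082, plus strand) and miR-497 (chr11:70234730-70234751, plus strand) come from hairpins 241 bases apart. Mature miR-16 is identical from Mir16-1 (chr14:61631936-61631957) and Mir16-2 (chr3:69009918-69009939), so its reporter sums both. The hairpins of the Smc4 pair are shown because the reporters of their mature arms (in capitals) changed unequally. Since the miR-16 reporter also reads the copy from Mir16-1, the capitalized arm of Mir16-2 alone was not measured.
Mir15b: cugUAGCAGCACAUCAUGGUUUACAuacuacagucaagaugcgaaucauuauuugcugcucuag
Mir16-2: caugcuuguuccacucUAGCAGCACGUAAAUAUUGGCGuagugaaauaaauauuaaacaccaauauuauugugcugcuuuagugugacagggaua

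The arrays themselves differed between the groups. The density at which the dim reporters of an array pile up, its background peak, ran from 68.3 to 76.5 for controls and from 82.3 to 91.6 for TNF-α, and the background limit, set at the peak plus 3 SD of the values below it, was 93.8 to 103 and 118 to 132. TNF-α and a technical shift of one set of arrays cannot be told apart. The VSMC markers miR-143 and miR-145 were above the limit on all 6 arrays, and neither passed the test. Their summed density ran from 7699 to 9551 in controls and from 8799 to 10381 with TNF-α. Of the markers of blood cells 4 of 5 exceeded the limit on no array, and so did 1 of 2 endothelial, both neuronal and the liver marker. miR-126-3p, the other endothelial marker, exceeded it on 5 arrays. Of 4 listed striated muscle markers 3 were on the arrays. miR-206, above the limit on all 6 arrays, was called lower. miR-133b, above it on 1 array, and miR-133a, on 0, were not called (changes of -0.06 and -0.04 on the log2 scale). Summed density was 361 to 392 on control and 384 to 445 on TNF-α arrays for the blood list, and 185 to 219 and 193 to 233 for the endothelial list. For striated muscle it was 415 to 453 and 357 to 426, for neurons 150 to 161 and 148 to 161, and for the liver marker miR-122, also called lower, 83.0 to 93.5 and 79.8 to 89.2. The part of these markers in the results was not tested, and in bulk RNA fewer cells of a type and less RNA per cell cannot be told apart.

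miR-15b rose in TNF-α cultures, and no other member passed the test. Changes are TNF-α minus control on a log2 scale after background correction with an offset of 50 and quantile normalization, which puts the same set of values on every array; the test was limma's moderated test, with adjusted p (Benjamini-Hochberg) over 642 tested reporters and a threshold of 0.05. Of the 5 members, all tested, 1 was called higher and 0 lower. Of all tested reporters 22.7% were called, made up of 12.9% of all tested called higher and 9.81% called lower. A share of 1 in 5 members is near that background. Above the limit on all 6 arrays were 4 of the members and 202 tested reporters, of which 37 were called higher and 31 lower. The median change of the members was -0.05, and that of all tested reporters 0.01.

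**Figure D1:**
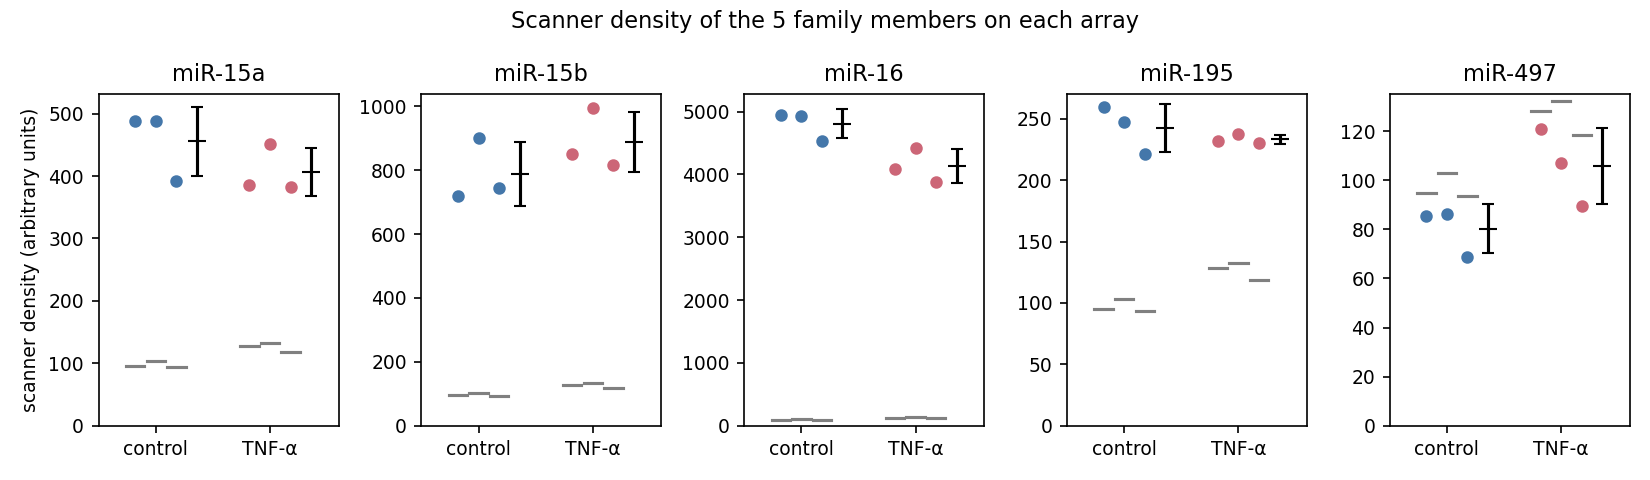
Scanner density (arbitrary units) of each member on each array, with control cultures in blue, TNF-α cultures in red, the mean and SD of each group (n = 3) in black and the background limit of each array as a grey bar. miR-16 was lower on every TNF-α array than on any control array, miR-15b overlapped between groups, and miR-497 lay under the limit on all 6 arrays.

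miR-15b, the member encoded in Smc4, read a scanner density of 718, 902 and 744 on control arrays 1, 2 and 3 and 852, 995 and 817 on TNF-α arrays 1, 2 and 3. The densities of the groups overlapped, since control replicate 2 lay above TNF-α replicates 1 and 3. The mean was 888 ± 94.3 with TNF-α against 788 ± 99.7 in controls (SD, n = 3). The deposited SD of this reporter's density within an array was 57.3 to 105. After normalization the log2 values were 9.45, 9.56 and 9.56 in controls and 9.84, 9.995 and 9.96 with TNF-α, which no longer overlapped. Among all tested reporters 20.4% were likewise higher without overlap. Control replicates 2 and 3, at densities of 902 and 744, were given the same value because miR-15b held the same rank there. The spread on that scale therefore does not show how alike those cultures were. The change was 0.41 ± 0.07 (SE, n = 3 per group), or 1.33-fold, with a 95% interval of 0.24 to 0.58 and an adjusted p of 0.00819 in limma. Without normalization the SE of the change was 0.12.

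The rise of miR-15b depended on the scaling of the arrays. Median scaling set each array to the median of the reporters with a corrected density of at least 32 on all 6 arrays. The change of miR-15b was 0.17 without normalization (adjusted p = 0.264 in limma), 0.12 with median scaling (adjusted p = 0.412) and 0.11 in the authors' processed table (adjusted p = 0.422). In these settings the bulk of reporters was not centred on 0, with a median change of 0.14, 0.09 and -0.12. Relative to that median miR-15b was 0.03, 0.03 and 0.23 higher. In the first 2 settings the median rests largely on dim reporters, since 202 of the 642 tested were above the limit on all 6 arrays. Over all reporters quantile normalization gave 83 calls higher and 63 lower, against 163 and 41 without normalization, 126 and 60 with median scaling and 39 and 81 in the processed table. With cyclic loess, a local scaling over the range of densities, miR-15b kept its call (0.32, adjusted p = 0.0431).

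miR-16, which regulates the same cell cycle genes and comes from both miR-15 clusters, read 4948, 4936 and 4539 on the control arrays and 4084, 4423 and 3884 on the TNF-α arrays. Every TNF-α array was lower than every control array, which held for 4.36% of all 1078 reporters at the level of scanner densities. The means were 4808 ± 233 (SD, n = 3) and 4130.0 ± 272. After quantile normalization the groups overlapped and the change did not pass (-0.11 ± 0.09, SE; 95% interval -0.31 to 0.09; adjusted p = 0.401 in limma). With median scaling (-0.28, adjusted p = 0.0304) and in the processed table (-0.28, adjusted p = 0.0263) it passed as lower, and without normalization it was -0.22 (adjusted p = 0.0912). With quantile normalization and 1 array left out it ran from -0.17 (without control replicate 1) to -0.030 (without control replicate 3) and was not called in any of the 6 cases. In the processed table, whose values are intensities on the authors' own scale, miR-16 was 4794 ± 108 in controls and 3950.3 ± 113 with TNF-α, and 21.0% of reporters there were lower without overlap.

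miR-15a, the Dleu2 member, read 488, 488 and 392 on the control arrays and 386, 452 and 382 on the TNF-α arrays. The groups overlapped, at 456 ± 55.4 and 406 ± 39.1 (SD, n = 3), because control replicate 3 lay near the TNF-α values. Its change of -0.05 ± 0.07 did not pass (95% interval -0.22 to 0.12; adjusted p = 0.671 in limma). It did not pass under any scaling run either, the value farthest from 0 being -0.29 in the processed table (adjusted p = 0.052 in limma). There it read 419, 416 and 337 in controls and 302, 336 and 300 with TNF-α, without overlap, as for 21.0% of reporters lower in that table.

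miR-195, known for restraining VSMC proliferation, read 259, 248 and 221 on control and 232, 237 and 231 on TNF-α arrays. The TNF-α values lay inside the control range, at 233 ± 3.56 against 243 ± 19.4 (SD, n = 3). Its change was -0.05 ± 0.07 (95% interval -0.20 to 0.11; adjusted p = 0.664 in limma). Quantile normalization gave it the same value, 7.90, on all 3 control arrays because it held the same rank there, so its spread on that scale is 0 in controls.

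miR-497, the neighbour of miR-195, read 85.6, 86.4 and 68.7 on control and 121, 107 and 89.7 on TNF-α arrays. These values were below the background limit on all 6 arrays, so no fold is given. The groups did not overlap in density, but the background peaks were also higher on the TNF-α arrays, and 38.2% of all reporters were higher without overlap. The change of 0.19 ± 0.10 did not pass (95% interval -0.04 to 0.41; adjusted p = 0.210 in limma). Without normalization (0.36, adjusted p = 0.0233) and with median scaling (0.31, adjusted p = 0.0252) it passed as higher. Leaving out TNF-α replicate 1 took it to 0.10 and leaving out TNF-α replicate 3 to 0.26, with no call in any of the 6 cases.

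**Figure D2:**
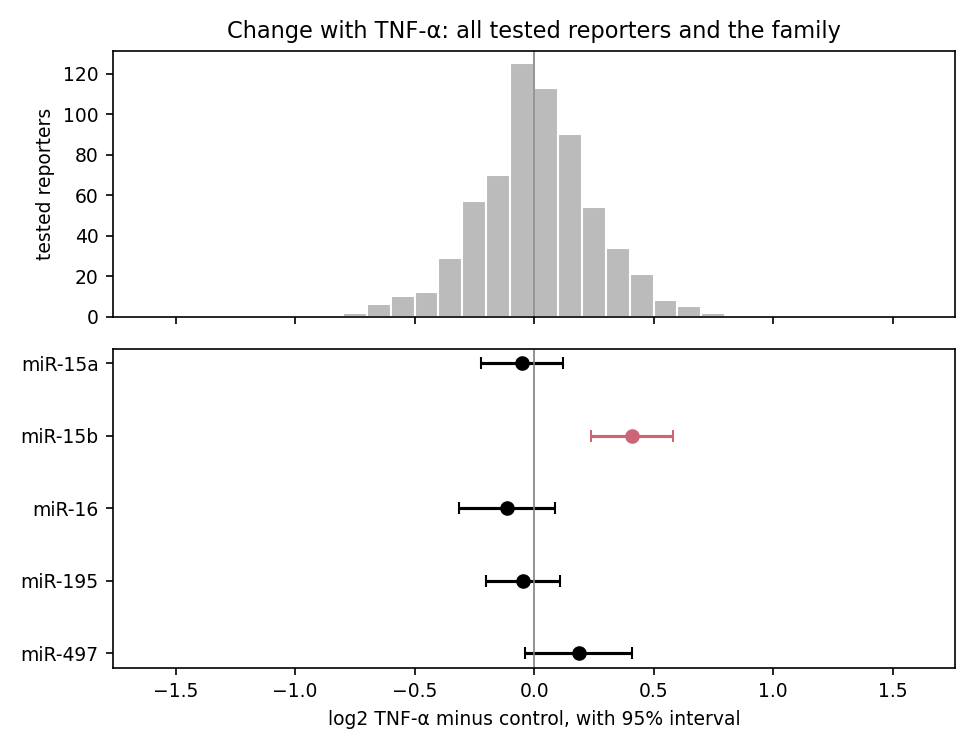
Top, the number of the 642 tested reporters at each change (log2 TNF-α minus control). Bottom, the change of each member with its 95% interval (limma, n = 3 per group), in red where adjusted p was under 0.05; the interval of miR-15b, 0.24 to 0.58, does not reach 0, and those of the other 4 do.

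Setting each member against miR-16 on the same array takes out a constant scaling factor of that array. An adjustment that varies with density, as in quantile normalization, is not taken out. On this measure miR-15b rose relative to miR-16 and the difference was larger than the spread between cultures. On the normalized log2 scale miR-15b minus miR-16 was -2.64, -2.56 and -2.79 on the control arrays and -2.18, -2.15 and -2.10 on the TNF-α arrays. The groups did not overlap, as for 27.8% of reporters higher against miR-16, and the spread was 0.12 in controls and 0.04 with TNF-α (SD, n = 3). The change was 0.52 ± 0.12 (SE, n = 3 per group), or 1.44-fold, with a 95% interval of 0.26 to 0.78 and an adjusted p of 0.00914 in limma over the 641 other reporters. Of those, 14.8% were called relative to miR-16, 12.3% higher and 2.50% lower, and the median of all was 0.12 higher. An exact permutation test of the 6 values gave a two-sided p of 0.1, the smallest that 3 against 3 can give.

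The unequal change of miR-15b and miR-16 was called under each of the 19 alternatives run, with values of 0.39 to 0.59 and adjusted p of 0.000984 to 0.0345 in limma. The other filters, the trended variance and the replicate block leave it at 0.52 by design. Its value was 0.39 in the processed table, with median scaling and without normalization, where the change of miR-15b itself did not pass. In these settings miR-16 changed by -0.28, -0.28 and -0.22, farther from 0 than miR-15b (0.11, 0.12 and 0.17). The bulk of reporters also shifted against miR-16 there, with a median of 0.16 in the processed table and 0.36 in the other two, which left miR-15b 0.23 above it in the first and 0.03 above it in the others. Called higher relative to miR-16 were 40.1% of tested reporters in the processed table and 65.2% both with median scaling and without normalization. Median scaling and no normalization give the same result on this measure, since a constant factor per array cancels, so they are not separate alternatives. The ratio was also taken directly from the scanner densities after subtracting each array's background peak, with no offset and no normalization. The miR-15b signal was 13.2%, 17.0% and 15.1% of the miR-16 signal on the control arrays and 19.1%, 20.9% and 19.3% on the TNF-α arrays, without overlap, as for 22.3% of the tested reporters higher against miR-16 on this measure. The means were 15.1% ± 1.88 and 19.8% ± 0.974 (SD, n = 3). The size of such a ratio depends on both probes and does not give the relative abundance of the miRNAs; its change between groups is what was compared.

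**Figure D3:**
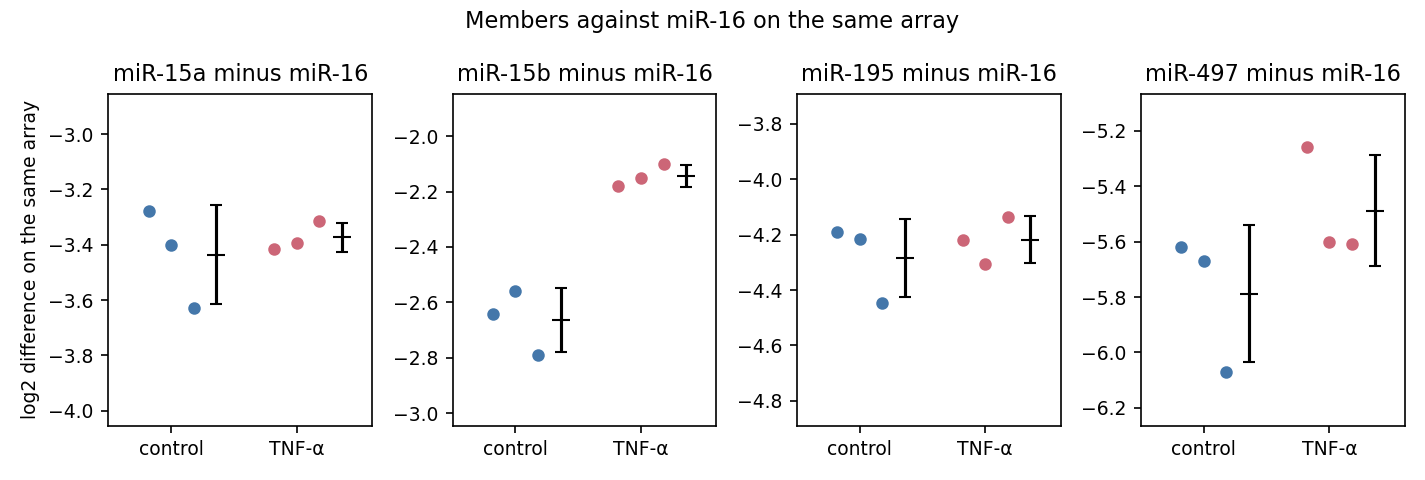
Log2 difference between each of 4 members and miR-16 on the same array after quantile normalization, control in blue and TNF-α in red, with the mean and SD of each group (n = 3) in black; every panel spans the same range. miR-15b minus miR-16 lay at -2.79 to -2.56 on control and -2.18 to -2.10 on TNF-α arrays, and the miR-15a and miR-195 groups overlapped. The groups of miR-497, whose densities lay under the background limit, did not overlap.

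The other members were not called relative to miR-16. For miR-15a the change was 0.06 ± 0.13 (95% interval -0.21 to 0.33; adjusted p = 0.787 in limma). For miR-195 it was 0.07 ± 0.13 (95% interval -0.20 to 0.33; adjusted p = 0.771). Their ratios to miR-16 after peak subtraction overlapped, at 8.51%, 8.47% and 7.24% against 7.37%, 8.31% and 7.89% for miR-15a, and at 3.82%, 3.52% and 3.42% against 3.52%, 3.36% and 3.90% for miR-195. miR-497 was 0.30 ± 0.14 higher relative to miR-16 (adjusted p = 0.181); it passed with cyclic loess (0.36, adjusted p = 0.0449), without normalization (0.58, adjusted p = 0.000497) and with median scaling (0.58, adjusted p = 0.000497). On the normalized scale the miR-497 groups did not overlap either, as for 27.8% of reporters higher against miR-16. The exact permutation p (two-sided) was 0.1 for miR-497, 0.8 for miR-15a and 0.7 for miR-195. Beside the values of miR-497 stands its density, under the background limit on every array.

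miR-15b was also compared with miR-15a, from which it differs at 4 positions, and miR-195 with its cluster neighbour miR-497. miR-15b minus miR-15a was 0.64, 0.84 and 0.84 on control and 1.24, 1.25 and 1.21 on TNF-α arrays. The repeated 0.84 arose because quantile normalization gave each of them the same value on control replicates 2 and 3. The groups did not overlap, as for 25.4% of tested reporters higher against miR-15a, and the difference between the groups was 0.46. The exact permutation p was 0.1 (two-sided, the smallest possible; 0.2 adjusted over the 2 pairs compared), and the difference was 0.34 to 0.49 under the alternatives. For miR-195 and miR-497 the difference changed by -0.23 with overlapping groups (exact permutation p = 0.3, also 0.3 adjusted).

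**Figure D4:**
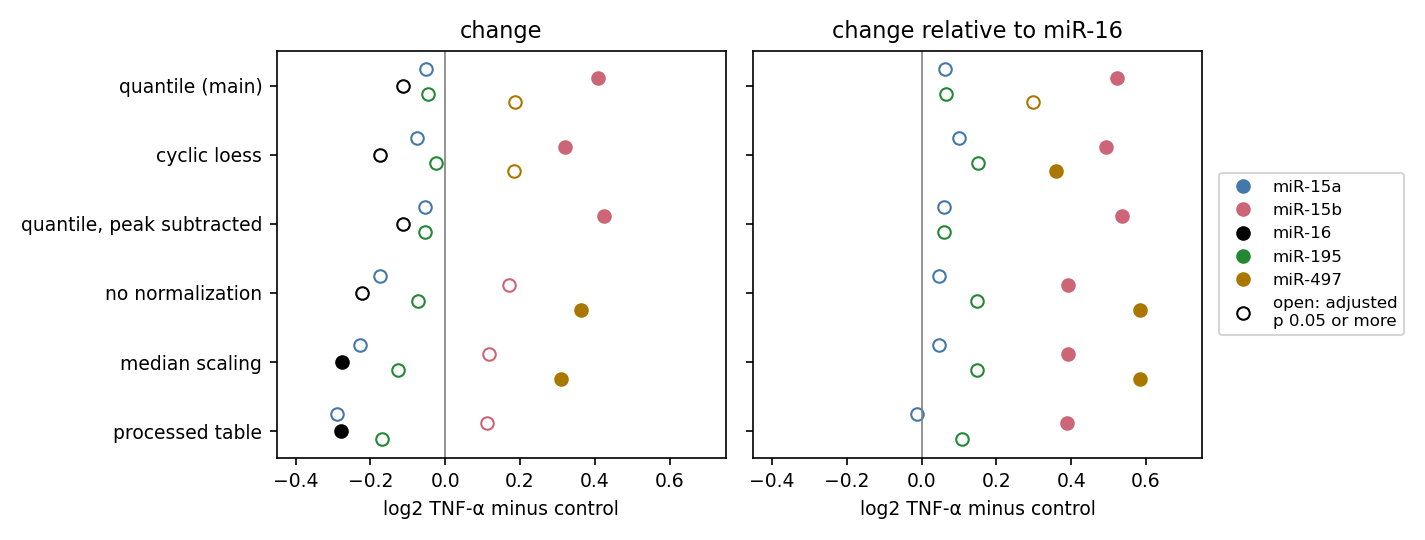
Change of each member (left) and change relative to miR-16 on the same array (right), log2 TNF-α minus control, under 6 ways of scaling the arrays; filled points have adjusted p under 0.05 in limma. miR-15b on the left runs from 0.11 in the processed table to 0.42 with the background peak subtracted, and on the right from 0.39 to 0.54, filled throughout. miR-497 has no point with the peak subtracted or in the processed table, where it did not reach the filter.

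The other arms of the 6 hairpins, written with an asterisk in the older names used on the array, were dim. None of these 6 reporters exceeded the background limit on a TNF-α array, where that limit was higher, and miR-15a* and miR-195* exceeded it on 1 control array each. The minimum density of the test was reached by 3 of them, of which 0 were called higher and 1 lower, against 12.9% and 9.81% of all tested reporters. The one called lower was miR-16-1*, from the hairpin Mir16-1, with densities of 89.5, 92.2 and 89.1 on control and 82.6, 87.4 and 86.2 on TNF-α arrays. Its change was -0.32 ± 0.08 (adjusted p = 0.0301 in limma), below the limit on all 6 arrays, so no fold is given. Median scaling (-0.18) and no normalization (-0.13) ended this call, as did leaving out control replicate 1 (-0.33), 2 (-0.32) or 3 (-0.28) or TNF-α replicate 1 (-0.26) or 2 (-0.30). The other arms of Mir15b and Mir16-2 did not reach the minimum, with miR-15b* at 70.3, 82.4 and 72.2 against 69.8 to 70.1 and miR-16-2* at 70.1, 70.8 and 64.3 against 76.7, 75.0 and 71.4, so the unequal change of miR-15b and miR-16 could not be followed in those arms. Nor did miR-497* reach it, at 68.6, 65.8 and 60.2 on control and 88.4, 97.5 and 89.2 on TNF-α arrays. Its densities lay under the limit on all 6 arrays and did not overlap between groups, as for 38.2% of all reporters higher in density.

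The relatives on chromosome X, miR-322 with the same seed and miR-503, whose seed differs from that of miR-15a at its last base (A8G), were near background as well. miR-322 was called lower (-0.25 ± 0.07, adjusted p = 0.0355 in limma) from 113, 107 and 97.4 on control and 107, 103 and 95.6 on TNF-α arrays, above the limit on the 3 control arrays and on no TNF-α array. That limit was 93.8 to 103 on control and 118 to 132 on TNF-α arrays, and the miR-322 densities of the groups overlapped. Median scaling (-0.14), no normalization (-0.09) and leaving out any 1 of the 6 arrays (-0.27 to -0.21) each ended the call. miR-503 was below the limit on all 6 arrays (0.19 ± 0.09, adjusted p = 0.179).

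Over the 6 arrays the normalized values of the members did not follow each other. Pearson's r between members ran from -0.82 for miR-195 and miR-497 to 0.70 for miR-15a and miR-195, and it was -0.37 for miR-15b and miR-16. Among the 201 other reporters above the limit on all 6 arrays, those closest to miR-15b were miR-3095-3p (r = 0.996), miR-199b* (0.985) and miR-129-2-3p (0.984), and 22 reached 0.9. All 3 were called higher in the same fit, by 0.25, 0.47 and 0.29. Of the 202 tested reporters above the limit on all 6 arrays, 37 were called higher. The 3 were picked for following miR-15b, which differed between the groups, so their calls carry no separate support. Closest to miR-16 were miR-132 (0.869), miR-1897-5p (0.866) and miR-214 (0.809), and none reached 0.9. For miR-15a they were miR-1983 (0.908), miR-671-5p (0.889) and miR-152 (0.819), for miR-195 miR-181b (0.942), miR-22 (0.881) and miR-199a-3p (0.855), and for miR-497, among 202, miR-652 (0.973), miR-5115 (0.940) and miR-5109 (0.928). The arrays share a group and a normalization, so these values describe likeness and carry no test.

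Lists of other miRNAs of the cell cycle were read against the 12.9% of all tested reporters called higher and the 9.81% called lower. Of 17 listed miRNAs that restrain G1 cyclins, their kinases or BCL2, 9 were on the arrays and 5 were tested, of which 1 rose and 1 fell, with a median of 0.10. Apart from miR-98, no let-7 entry of this list was found among the reporters, so the let-7 family was not read as a whole. miR-34a, a target of p53, rose by 0.55 ± 0.07 (adjusted p = 0.00227 in limma), and miR-98, of the let-7 family, fell by 0.37 on the log2 scale (SE 0.11, adjusted p = 0.0459). Of 14 listed miRNAs that promote cell cycle progression, 12 were tested, of which 1 rose and 0 fell, with a median of -0.01. The one that rose was miR-25 (0.39 ± 0.08, adjusted p = 0.0115 in limma), from an intron of Mcm7, while its neighbour miR-93 was 0.39 ± 0.12 and did not pass (adjusted p = 0.0567). miR-34a and miR-25 lost their calls in the same 3 settings as miR-15b, namely the processed table (0.23 and 0.25), median scaling (0.20 and 0.17) and no normalization (0.26 and 0.23). miR-98 was no longer called under 9 of 19 alternatives, which included leaving out control replicate 1 (-0.30), 2 (-0.36) or 3 (-0.41) or TNF-α replicate 1 (-0.27) or 2 (-0.38).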

How the data were processed

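The authors deposited, for each array, a median density and its SD per reporter; per the file headers and values these are linear intensities that still include background. They also deposited a table of processed intensities, with a low floor, whose scaling between arrays is not stated. Groups came from the labelled treatment. Replicate numbers follow accession order, which is also that of the titles; the descriptions number TNF-α replicates 2 and 3 alike. The labels say the cultures were grown separately.

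Densities were corrected with normexp (offset 50), taken to log2 and quantile normalized in limma 3.58.1 under R 4.3.3. Reporters reaching a corrected density of 32 on at least 3 arrays were tested, 642 in all, with group as the only term. The comparison with miR-16 used the same model on each reporter minus miR-16; since every difference then carries the error of miR-16, its p-values depend on each other. The procedure was tested on simulated data. The members, lists and tests were chosen with earlier results of these data known. The named miRNAs were the members, the other arms of their hairpins, their seed relatives, the 3 reporters most correlated with each member, and of each cell cycle list those called and the 2 of smallest p.

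The alternatives were 3 other scalings, peak subtraction, offsets of 8 and 128, 4 other filters, the processed table with 32 added, a trended robust variance, a block for the replicate number and leaving out each array. Same-numbered arrays deviated together with r of 0.04, 0.02 and 0.15, so the numbers were not taken as pairs. Fold changes on the offset scale understate changes, and the number of arrays limits precision.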

Additional observations from a re-analysis of the deposited data

How the results depend on the processing

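Across the 19 alternatives the change of miR-15b was positive throughout (0.11 to 0.47) and called in 16. The 3 exceptions were the processed table (0.11), median scaling (0.12) and no normalization (0.17). These 16 are not separate support, since all but cyclic loess (0.32, adjusted p = 0.0431 in limma) kept quantile normalization. The other filters, the trended variance and the replicate block leave the value at 0.41 by design. miR-16 was called lower in the processed table (-0.28) and with median scaling (-0.28). miR-497, which 5 alternatives left untested, was called higher without normalization (0.36) and with median scaling (0.31), and relative to miR-16 under cyclic loess (0.36), no normalization (0.58) and median scaling (0.58). The number of members called was 2 with median scaling, namely miR-16 and miR-497, and 1 otherwise, which was miR-497 without normalization and miR-16 in the processed table. miR-15a relative to miR-16 was -0.012 in the processed table. With 1 array left out, miR-15b stayed called in all 6 cases (0.36 to 0.47), miR-15a ran from -0.078 to 0.0045, miR-15a relative to miR-16 from -0.033 to 0.14, and miR-195 relative to miR-16 from -0.016 to 0.13, none of the last 3 called; the cause was not tested. Reporters called over the whole array numbered 146, against 77 with a filter at 100 (189 tested) and 70 to 91 with 1 array left out (500 to 626 tested). With the replicate number as a block 103 reporters were called; among the members and their differences from miR-16 no call changed (miR-15b 0.41, adjusted p = 0.0216 in limma), while miR-322 and miR-98 lost theirs. Values under the background limit, among them all of miR-497, set no firm level.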
